A study of Mus musculus with 6 samples.

Results

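The glutathione S-transferases described here are 10 genes of the alpha class (Gsta2, Gsta3, Gsta4), the mu class (Gstm1, Gstm2, Gstm3, Gstm5), the pi class (Gstp1), the theta class (Gstt1) and the omega class (Gsto1). All probe sets whose platform symbol is, or includes among several, 1 of these genes were taken, which gave 17 of the 45101 probe sets of the array. RNA was taken from untreated colonic mucosa of C57BL/6 mice and measured on Affymetrix 3' expression arrays. Of these 3 carried the genotype label p38a knockout and 3 wild type, with a letter from A to C within each group. Mapk14 encodes p38a, a kinase activated by stress. How and in which cells it was deleted, and the age and number of animals, were not given in the sources used here. The p-values therefore rest on the spread among these 6 samples, and that spread may be technical. The comparison asks how transcripts differ between these genotypes.

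Glutathione S-transferases join the tripeptide glutathione to reactive electrophiles, which makes them water-soluble and ready for export from the cell. The alpha, mu, pi and theta enzymes are cytosolic dimers with overlapping substrates, and alpha enzymes also reduce lipid hydroperoxides. Omega enzymes act more as thioltransferases and reductases. In the gut epithelium these enzymes meet compounds from food, bile and microbes, and many of their genes are targets of the transcription factor NRF2, which binds antioxidant response elements together with small MAF proteins.

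The upstream sequences below show what short motifs lie near the start of the members that differed most in signal (Gsta2, Gsta3, Gstm1) and of the members that held an AP-1 motif (Gstm5, Gstp1). Gsta2 counts among the first through a probe set shared with Gsta1 and Gm3776, so that difference may not be its own. Each sequence is the 250 bases before an annotated start, 5′ to 3′ on the gene's strand, from RefSeq in build GRCm38.p6, with the motif matches in capitals. Of the 10 genes 9 matched by symbol, with 10 starts in all, as Gstm1 has 2, of which the downstream one is shown.
Gsta2, chr9:78347146-78347395, minus strand: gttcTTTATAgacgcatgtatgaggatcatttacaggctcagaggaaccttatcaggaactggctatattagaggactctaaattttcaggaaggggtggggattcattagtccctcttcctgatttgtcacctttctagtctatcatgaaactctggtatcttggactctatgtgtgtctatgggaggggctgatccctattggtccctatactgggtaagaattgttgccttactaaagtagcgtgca
Gsta3, chr1:21240335-21240584, plus strand: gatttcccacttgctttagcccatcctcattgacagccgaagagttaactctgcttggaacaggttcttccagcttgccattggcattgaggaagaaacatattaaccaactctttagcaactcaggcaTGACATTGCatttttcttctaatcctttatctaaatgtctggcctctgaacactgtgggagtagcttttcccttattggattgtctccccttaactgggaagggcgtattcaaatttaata
Gstm1, chr3:108017819-108018068, minus strand: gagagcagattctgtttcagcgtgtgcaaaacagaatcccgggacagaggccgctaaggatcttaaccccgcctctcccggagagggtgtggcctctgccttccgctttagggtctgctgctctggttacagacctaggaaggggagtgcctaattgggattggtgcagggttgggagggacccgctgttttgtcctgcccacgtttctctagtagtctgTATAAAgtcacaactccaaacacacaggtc
Gstm5, chr3:107895604-107895853, plus strand: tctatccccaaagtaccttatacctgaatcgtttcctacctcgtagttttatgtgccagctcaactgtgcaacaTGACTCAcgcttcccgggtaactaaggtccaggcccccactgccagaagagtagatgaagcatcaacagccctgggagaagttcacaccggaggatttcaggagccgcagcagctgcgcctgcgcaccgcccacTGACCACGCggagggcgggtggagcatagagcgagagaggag
Gstp1, chr19:4037913-4038162, minus strand: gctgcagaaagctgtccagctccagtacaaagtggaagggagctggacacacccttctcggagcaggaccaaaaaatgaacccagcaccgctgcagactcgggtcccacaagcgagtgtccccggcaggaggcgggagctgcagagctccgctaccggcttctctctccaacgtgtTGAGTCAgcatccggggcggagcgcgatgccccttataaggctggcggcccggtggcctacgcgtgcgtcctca
The core of the antioxidant response element (TGACNNNGC), the AP-1 motif (TGANTCA) and the TATA box (TATAAA) were searched on both strands of windows reaching from 250 bases before the start to 50 after it. The first was found at 2 of the 10 starts, as TGACATTGC 121 bases before that of Gsta3 and as TGACCACGC 42 bases before that of Gstm5, and 12.4% of all 32851 promoter windows held it. The AP-1 motif was found at 2 of the 10, as TGACTCA 176 bases before the start of Gstm5 and as TGAGTCA 74 bases before that of Gstp1, and 7.81% of all windows held it. The TATA box was found at 3 of the 10, against 13.6% of all windows. It lay 30 bases before the start of Gstm1, at position 41 after that of Gstm5, and on the opposite strand near the far end of the Gsta2 sequence (TTTATA). No match of 1 of these motifs overlapped another. A match describes the letters only.

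Unless called deposited signals, values are quantile-normalized log2(signal + 16), a scale that understates differences of dim probe sets. A probe set was tested where its mean was at or above the 40th percentile. As deposited, wild type A and C had lower signals than the other 4 arrays (2% trimmed means of 141 and 117 against 188 to 222), and their Gapdh control ratio (3' over 5' probe set), which goes up with RNA degradation, was 1.10 and 1.45 against 0.859 to 0.989. The same ratio for the Actb control overlapped between the groups, at 1.82 to 2.27 in the knockout-labelled arrays and 2.24 to 3.25 in wild type. Brightness and the Gapdh ratio thus moved with the genotype label, with wild type B nearest to the knockout-labelled arrays. For that reason the differences of the genes described below are also given against wild type B alone. That array stood apart in other ways, with 6 pancreatic markers at a summed normalized signal of 712 against at most 67.7 in any other array. Its B cell and plasma cell markers summed to 519, the lowest of all arrays. Values against it therefore rest on 1 array and are not cleaner estimates. The brightest Mapk14 probe set read 9.79 ± 0.11 in the knockout-labelled arrays and 9.37 ± 0.06 in wild type (SD, n = 3 each, log2 difference 0.41, SE 0.15, limma adjusted p = 0.915), and so was not lower under the knockout label. A higher mean in the knockout-labelled arrays was found for 5 of the 6 Mapk14 probe sets, counted without the filter, where 51.2% of all probe sets had one. Whether any of them lies in the deleted part was not examined. The groups are therefore called by their labels. The labelled epithelium was present, with the epithelial markers Epcam, Krt8 and Cdx2 above the 96th percentile of all probe sets.

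Most glutathione S-transferase probe sets read higher in the knockout-labelled arrays, but none passed the test. Of the 17 probe sets 15 had a higher mean there, where 51.2% of all probe sets did, and the median log2 difference over the 17 was 0.33. In 5 of the 17, all 3 knockout-labelled arrays lay above all 3 wild-type arrays, against 4.71% of all probe sets, and none lay wholly below, as 4.62% of all did. Of the 16 probe sets past the filter, limma called 0 at an adjusted p of 0.05, as it called 0% of the 27002 tested, and the adjusted p of the 16 ran from 0.915 to 0.967. At an unadjusted limma p under 0.05, 3 of the 16 were higher, with 1.7% of all probe sets tested higher at that level. The 4 probe sets of Gstm1 and the pairs for Gsta2, Gsta3, Gstm3 and Gsto1 mean that these counts are not counts of independent genes. By class, the median difference was 0.56 over the 5 alpha probe sets, 0.31 over the 8 mu probe sets, 0.14 for the pi, 0.19 for the theta and -0.03 for the omega probe sets. The alpha class thus stood highest and the omega class near 0, and the difference between classes was not tested. The omega median turned above 0 on the signals as deposited and with arrays centred on their medians, where the median of all probe sets tested was 0.40 and 0.16. It was also above 0 against wild type B alone (0.013).

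**Figure D1:**
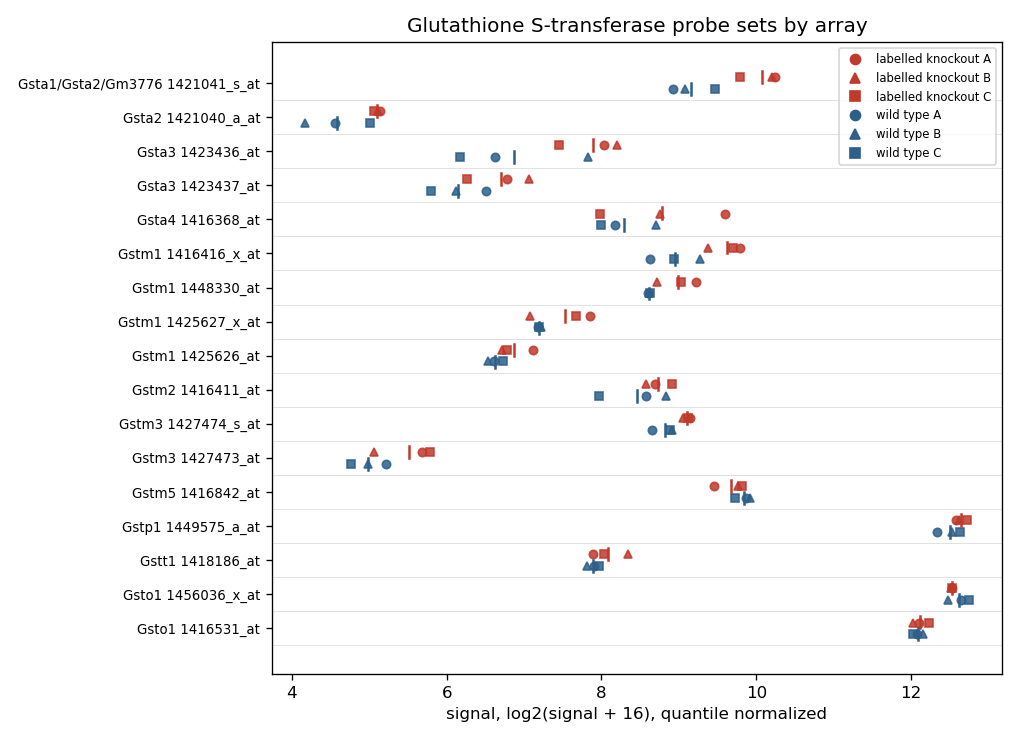
Signal of each glutathione S-transferase probe set on the log2(signal + 16) scale after quantile normalization (x axis) for each of the 6 arrays; red points are the knockout-labelled arrays and blue points wild type, marker shapes give the letters A, B and C, and short lines give group means (n = 3). The red points lie wholly above the blue ones in 5 of the 17 rows, and the widest gaps between means are those of Gsta3 (1423436_at, 1.02) and of the probe set shared by Gsta1, Gsta2 and Gm3776 (0.92).

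Of the alpha class, the probe set shared by Gsta2, its near-copy Gsta1 and Gm3776 (1421041_s_at) had the smallest p of all members. Gsta1 and Gsta2 encode inducible alpha enzymes, and this probe set cannot tell the 3 genes apart. Its deposited signals were 1564, 1298 and 1030 in the knockout-labelled arrays A, B and C and 371, 577 and 445 in the wild-type ones. After normalization it read 10.24, 10.20 and 9.79 against 8.92, 9.07 and 9.47. Every knockout-labelled array lay above every wild-type array, and wild type C came closest. The means of 10.08 ± 0.25 and 9.15 ± 0.28 (SD, n = 3 each) lay 1.90-fold apart, a log2 difference of 0.92 (SE 0.21, 95% interval 0.46 to 1.39, unadjusted p = 0.00169, limma adjusted p = 0.915), the 27th smallest p of 27002. The gap was at least as wide against wild type B alone (1.0) as against the mean of the other 2 wild-type arrays (0.88), and with the Gapdh ratio as covariate it was 1.28. That ratio was 0.859 to 0.954 in the knockout-labelled arrays and 0.989 to 1.45 in wild type, without overlap. Values with it as covariate, here and below, therefore cannot separate the ratio from the label. With array weights, which weighted wild type A most, the shared probe set was called (limma adjusted p = 0.0213). Over its 18 alternatives the adjusted p ran from that value up to 0.9998. The other Gsta2 probe set (1421040_a_at), which carries the Gsta2 symbol alone, lay below the filter and was not tested. Its deposited signals were 20.6, 20.8 and 19.6 against 6.78, 1.78 and 15.0. These also had no overlap, but lie near or under the pseudocount.

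Gsta3, which encodes an alpha enzyme known for detoxifying aflatoxin epoxide in the mouse, has a pair of probe sets that placed wild type B differently. The brighter one (1423436_at) read 8.04, 8.19 and 7.44 in the knockout-labelled arrays A, B and C and 6.62, 7.83 and 6.17 in the wild-type ones. Wild type B lay within the range of the knockout-labelled arrays, and wild type A and C lay far below it. The log2 difference was 1.02 (SE 0.41, 95% interval 0.08 to 1.95, limma adjusted p = 0.915), but 0.06 against wild type B alone and 0.25 with the Gapdh ratio as covariate. The other probe set (1423437_at) read 6.78, 7.06 and 6.27 against 6.51, 6.13 and 5.80. There wild type B lay below all knockout-labelled arrays, and wild type A reached into their range. Its difference was 0.56 (SE 0.28, limma adjusted p = 0.915), and 0.58 against wild type B alone. Both were higher by mean in the knockout-labelled arrays, with the groups overlapping in each.

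Gsta4, whose product favours 4-hydroxynonenal and other aldehydes from oxidised lipids, read 9.59, 8.76 and 7.98 in the knockout-labelled arrays A, B and C (1416368_at). Wild type A, B and C read 8.17, 8.71 and 8.0. The knockout-labelled arrays spread over a wider range than the whole wild-type group, with A highest and C lowest of the 6. The difference of 0.49 (SE 0.38, 95% interval -0.39 to 1.36, limma adjusted p = 0.915) was smaller than the SD of 0.81 in the knockout-labelled arrays, and was 0.07 against wild type B alone. Without knockout-labelled array A it was 0.08, and without C 0.88.

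Of the mu class, Gstm1, which encodes a broad-range enzyme for epoxides and quinones, read higher by mean on all 4 of its probe sets. On the brightest (1416416_x_at), the knockout-labelled arrays A, B and C read 9.78, 9.38 and 9.70 and wild type A, B and C 8.63, 9.28 and 8.93. The groups did not overlap, although wild type B lay only just below knockout-labelled array B. The log2 difference was 0.68, or 1.60-fold (SE 0.21, 95% interval 0.19 to 1.16, limma adjusted p = 0.915), and 0.34 against wild type B alone. On 1448330_at the knockout-labelled arrays read 9.22, 8.72 and 9.02 against 8.60, 8.61 and 8.63, with no overlap and a difference of 0.37 (SE 0.18, limma adjusted p = 0.915). The 3 wild-type arrays lay within an SD of 0.015 there, and wild type B did not stand apart from A and C, so that the difference against B alone was 0.38. The other 2 probe sets, 1425627_x_at and 1425626_at, gave 0.33 (SE 0.24) and 0.25 (SE 0.20), with overlapping groups, and 0.31 and 0.34 against wild type B alone. On all 4 knockout-labelled array A was highest and B lowest of its group, and without A 1425627_x_at and 1425626_at shrank to 0.17 and 0.12. Without B, 1425627_x_at gave 0.57. The x in a probe set name marks possible cross-hybridisation, so 2 of the 4 may read other mu transcripts.

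Gstm2, Gstm3 and Gstm5 encode further mu enzymes, the last of them best known from testis and brain. Gstm2 (1416411_at) read 8.69, 8.57 and 8.91 in the knockout-labelled arrays A, B and C against 8.58, 8.83 and 7.97 in wild type. Wild type C alone stood low, and wild type A and B lay among the knockout-labelled arrays. The difference of 0.26 (SE 0.24, limma adjusted p = 0.915) turned to -0.10 with wild type B as sole control and to -0.31 with the Gapdh ratio as covariate. It was 0.02 without wild type C, 0.44 without wild type B and 0.17 without knockout-labelled array C. The brighter Gstm3 probe set (1427474_s_at) read 9.14, 9.05 and 9.12 against 8.65, 8.91 and 8.89. All 3 knockout-labelled arrays lay close together (SD 0.05) and above wild type, at a difference of 0.29 (SE 0.16, limma adjusted p = 0.915), and 0.19 against wild type B alone. The dimmer set (1427473_at), close to the filter, gave 0.52 (SE 0.25), and 0.53 against wild type B alone, with knockout-labelled array B at 5.06 below wild type A at 5.22. Gstm5 (1416842_at) was the mu gene with a lower mean, reading 9.46, 9.76 and 9.82 against 9.87, 9.92 and 9.72. Its difference of -0.16 (SE 0.16, 95% interval -0.53 to 0.22, limma adjusted p = 0.915) turned to 0.36 on the signals as deposited, where the median of all probe sets tested was 0.40, and to 0.13 with arrays centred on their medians, where that median was 0.16. It was -0.24 against wild type B alone and shrank to -0.05 without knockout-labelled array A.

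For the pi, theta and omega genes the group means lay close together. Gstp1 (1449575_a_at), the pi enzyme abundant in many epithelia, read 12.57, 12.63 and 12.72 in the knockout-labelled arrays A, B and C against 12.33, 12.53 and 12.64 in wild type. Wild type C lay among the knockout-labelled arrays, and the difference was 0.14 (SE 0.12, 95% interval -0.13 to 0.41), 0.11 against wild type B alone and 0.05 without wild type A. Gstt1 (1418186_at), a theta enzyme that acts on small halogenated compounds, read 7.89, 8.34 and 8.03 against 7.90, 7.81 and 7.96, where knockout-labelled array B stood apart. Its difference was 0.19 (SE 0.19, 95% interval -0.24 to 0.63), 0.28 against wild type B alone and 0.07 without that array. Gsto1, an omega enzyme with thioltransferase and dehydroascorbate reductase activity, gave 0.04 (SE 0.11, 95% interval -0.22 to 0.29) on 1416531_at and -0.09 (SE 0.11, 95% interval -0.35 to 0.16) on 1456036_x_at. The direction of each Gsto1 value turned with wild type B as sole control, to -0.03 and 0.06, and with the Gapdh ratio as covariate, to -0.06 and 0.05. The first also turned without knockout-labelled array C (-0.02). The second turned on the signals as deposited (0.25) and with arrays centred on their medians (0.02), where the median of all probe sets tested was 0.40 and 0.16. With other single arrays left out the Gsto1 values ran from 0.006 to 0.08 and from -0.17 to -0.03. The 3 genes' limma adjusted p ran up to 0.967. None of these 4 intervals reached a 2-fold difference, at which the log2 value is 1.

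**Figure D2:**
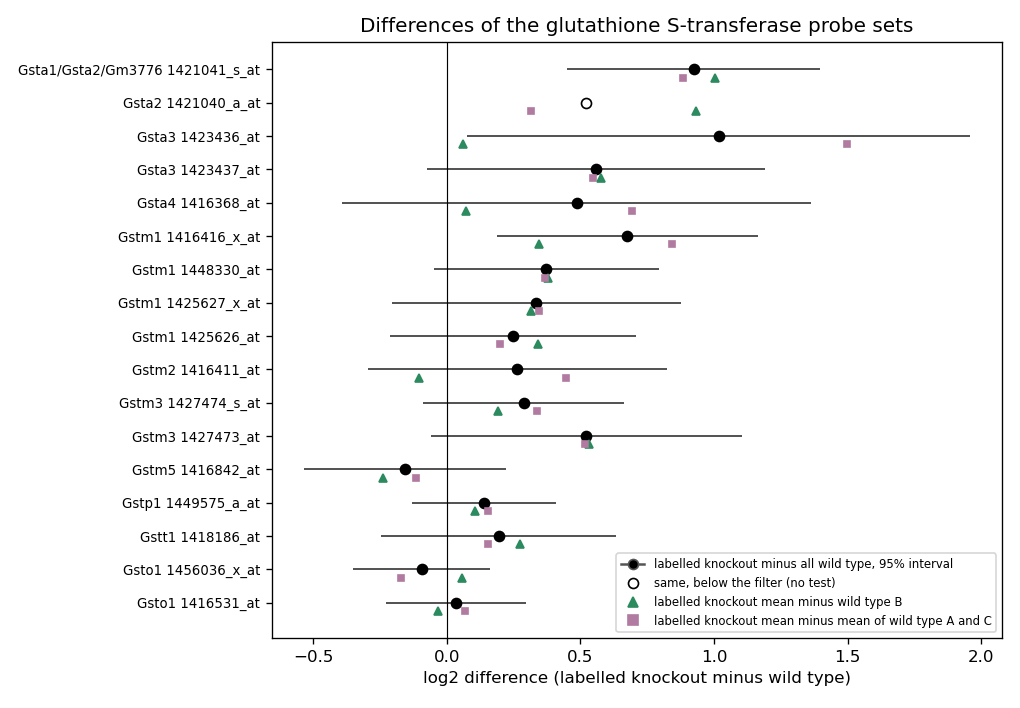
Log2 difference (knockout-labelled arrays minus wild type, x axis) of each glutathione S-transferase probe set, with limma's 95% interval as a line; green triangles give the difference of the knockout-labelled arrays from wild type B alone and purple squares that from the mean of wild type A and C, and the open circle is the probe set below the filter. For Gsta3 (1423436_at) the triangle sits at 0.06 and the square at 1.5, whereas for the probe set shared by Gsta1, Gsta2 and Gm3776 they sit at 1.0 and 0.88.

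The arrays of wild type contributed unequally to these differences. Over the 16 probe sets past the filter, the mean signal was 9.17, 9.00 and 8.99 in the knockout-labelled arrays A, B and C, against 8.66, 8.81 and 8.60 for wild type. Knockout-labelled array A was thus highest and wild type C lowest, with wild type B between the groups. The median difference from wild type B alone was 0.23, and that from the mean of A and C 0.36. Wild type B itself lay below all 3 knockout-labelled arrays on 10 of the 16, as on 22.2% of all probe sets tested, within their range on 5 and above it on 1, which was Gstm5. Wild type A or C was the lowest of the 6 arrays on 9 of the 16, against 46.0% of all probe sets tested. In a refit with wild type B as sole control the difference moved by over 1.5 times, or turned, for 6 of the 16, namely Gsta3 (1423436_at), Gsta4, Gstm1 (1416416_x_at), Gstm2 and both Gsto1 sets, and by less for the other 10. Brightness and the Gapdh ratio moved with the genotype label, and their part in the remaining differences was not tested beyond these values.

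**Figure D3:**
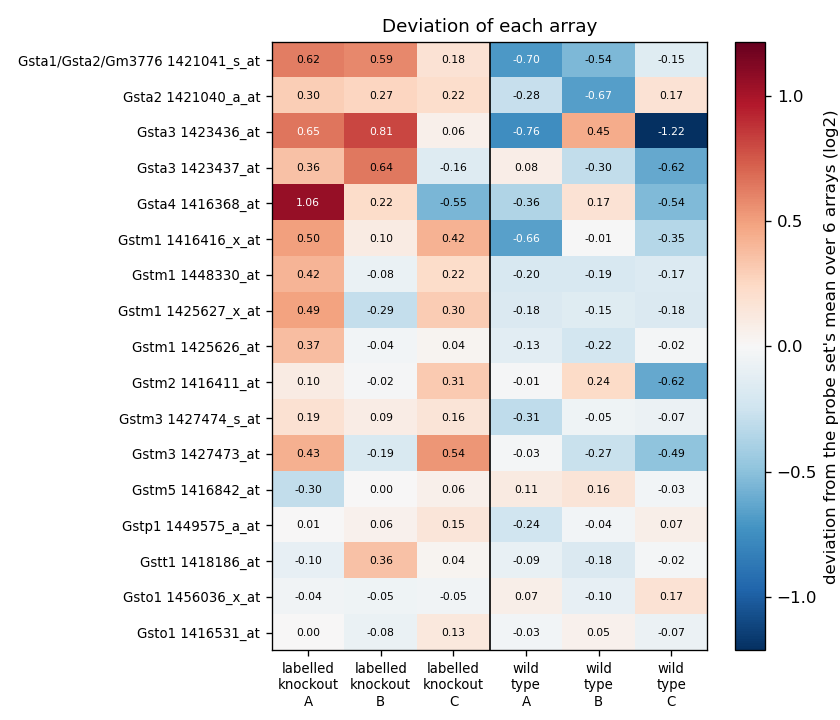
Deviation of each array (columns) from the mean of the 6 arrays, in log2 units, for each glutathione S-transferase probe set (rows); red is above and blue below that mean, and the line divides the knockout-labelled arrays from wild type. Gsta4 is highest in knockout-labelled array A alone, Gsta3 (1423436_at) is low in wild type A and C and not in B, and the Gsto1 rows are close to white throughout.

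Markers of some other cell types also moved with the label, and in bulk RNA fewer cells of a type and less RNA per cell cannot be told apart. The summed normalized signal of 5 smooth muscle markers, 2 of them below the filter, was 258 to 559 in the knockout-labelled arrays and 144 to 272 in wild type. Knockout-labelled array A was highest, but B (258) lay below wild type A (272), so the sums overlapped. By mean, 4 of the 5 were higher in the knockout-labelled arrays. For 5 goblet cell markers the sum was 44370 to 50230 against 53130 to 59600, with 5 of 5 lower. For 4 enteroendocrine markers it was 2135 to 2577 against 2606 to 7230, with 3 of 4 lower, Pyy by only 0.005, and Gcg higher (0.35). The groups overlapped on each of these markers. Wild type C alone gave the sum of 7230, and wild type A and B gave 2938 and 2606. Endothelial markers, 4 of 5 below the filter, summed to 56.3 to 78.8 against 80.7 to 91.2. By mean Pecam1 (0.05) and Vwf (0.16) were higher and Cdh5 (-0.21), Kdr (-0.36) and Tek (-0.33) lower, with the groups overlapping on each. For 9 colonocyte markers the sums overlapped, at 58630 to 73680 against 62630 to 79610. The sum of 5 T cell markers was 274 to 573 against 323 to 1276, which overlapped. All 5 were lower by mean, and of them only Cd3e (-1.01) had no overlap. Over the 4 tested the median difference was -0.68, but 0.27 against wild type B alone. The sums of B cell, macrophage, fibroblast, enteric nerve and hepatocyte markers overlapped as well. The sum of 6 pancreatic markers was 712 in wild type B and at most 67.7 in the other 5 arrays. No marker in these lists was at 0 on any array, and their part in the glutathione S-transferase values was not tested.

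Among other glutathione transferases, the members of the family and of the membrane-bound MAPEG family that are not described above, 11 of 14 tested genes were higher by mean and 3 lower, with a median of 0.06, where 53.6% of all probe sets tested were higher and their median was 0.02. None passed. The smallest p-values belonged to Ltc4s, the leukotriene C4 synthase gene of tuft and myeloid cells, at -0.81 (SE 0.23), to the microsomal transferase gene Mgst1 at 0.35 (SE 0.15) and to Gstm6 at 0.65 (SE 0.30). Against wild type B alone Ltc4s stood at -0.77, Mgst1 at 0.11 and Gstm6 at 0.08, and with the Gapdh ratio as covariate Gstm6 read -0.003. Mgst1 was 0.21 without wild type A, and Gstm6 0.35 without wild type C. Ltc4s was dim (48.9th percentile), and its size depended on the pseudocount, at -1.29 with 1 and -0.38 with 64. Gstm6 read 0.94 and 0.35 with these. Gsta1 and Gstp2 had no probe set of their own here.

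Genes that make, recycle and use glutathione gave no call either. Of 11 genes for glutathione synthesis and cysteine supply 7 were higher and 4 lower (median 0.02), with Cth, which makes cysteine from cystathionine, at 0.26 (SE 0.13), the transporter subunit gene Slc3a2 at -0.35 (SE 0.21) and Chac1, which degrades glutathione, at -0.24 (SE 0.22). On the signals as deposited Slc3a2 and Chac1 turned above 0 (0.15 and 0.03), where the median of all probe sets tested was 0.40. Against wild type B alone Cth, Slc3a2 and Chac1 read 0.21, -0.09 and -0.15. Without wild type C Slc3a2 was -0.22, and Chac1 was -0.06 without wild type A and -0.38 without C. The median of the list was -0.09 against wild type B alone and -0.03 without knockout-labelled array A. Gclc and Gclm, the subunits of the rate-limiting enzyme of glutathione synthesis, stood at 0.10 (SE 0.22) and 0.16 (SE 0.20), and at 0.49 and -0.03 against wild type B alone. Both were chosen for their role after their values were seen. Of 12 genes for glutathione reduction and peroxidases 10 were higher and 2 lower (median 0.18), with the glutathione reductase gene Gsr at 0.37 (SE 0.22), the glyoxalase gene Hagh at 0.26 (SE 0.18) and the mitochondrial glutaredoxin gene Glrx5 at 0.21 (SE 0.16). Against wild type B alone these 3 read 0.03, 0.04 and 0.06. The median of this list was 0.03 with wild type B as sole control and 0.01 with the Gapdh ratio as covariate. As a background, 53.6% of all probe sets tested were higher. Gsr was 0.17 without wild type C, and Glrx5 0.13 without knockout-labelled array A or wild type A.

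Of 11 genes for export and breakdown of glutathione conjugates 7 were higher and 4 lower (median 0.05). The ABC transporter gene Abcc4 had the smallest p among them, at 7.71 ± 0.18 in the knockout-labelled arrays and 6.73 ± 0.23 in wild type (SD, n = 3 each). Its groups did not overlap, and the difference was 0.97 (SE 0.21, limma adjusted p = 0.915), 0.72 against wild type B alone, and called only with array weights (limma adjusted p = 0.0326, in a range over its alternatives up to 0.9999). The aminoacylase gene Acy1 stood at 0.48 (SE 0.22), 0.35 against wild type B alone and 0.29 without wild type A. Abcg2, a xenobiotic exporter gene, stood at -0.34 (SE 0.33), which turned to 0.27 with wild type B as sole control. It also turned on the signals as deposited, to 0.14, where the median of all probe sets tested was 0.40. With single arrays left out Abcg2 ran from -0.66 to -0.14, and the list's median turned to -0.02 without wild type B.

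Of 15 regulators of glutathione transferase genes 5 were higher and 10 lower (median -0.09). The direction of this median depended on the scaling and on the controls. It was 0.38 on the signals as deposited and 0.15 with arrays centred on their medians, where the median of all probe sets tested was 0.40 and 0.16, and 0.03 against wild type B alone. Nfe2l2, which encodes NRF2, stood at 0.30 (SE 0.15), and its small MAF partners Mafk and Maff at -0.59 (SE 0.28) and -0.67 (SE 0.32). Against wild type B alone these values were 0.08, 0.07 and -0.07, so that Mafk turned. Without wild type B Mafk was -0.91, without wild type C -0.38, and Maff was -0.44 without knockout-labelled array C. Keap1, the repressor of NRF2, read -0.04 (SE 0.17) and -0.16 against wild type B alone, and it was chosen after its value was seen. Of 13 NRF2 targets outside glutathione use 10 were higher and 3 lower (median 0.12), with the carbonyl reductase gene Cbr3 at 0.55 (SE 0.25), the quinone reductase gene Nqo1 at 0.56 (SE 0.28) and the malic enzyme gene Me1 at -0.59 (SE 0.36). Against wild type B alone these 3 read 0.55, 0.66 and -0.40. Without knockout-labelled array A, Cbr3 and Nqo1 read 0.34 and 0.31 and Me1 -1.0, and without C Me1 was -0.29. Over these 6 lists limma called 0 genes, and 3 had an unadjusted p under 0.05, namely Ltc4s, Mgst1 and Abcc4. These are 3.95% of the 76 list genes tested, near the 3.53% of all probe sets tested that had such a p.

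**Figure D4:**
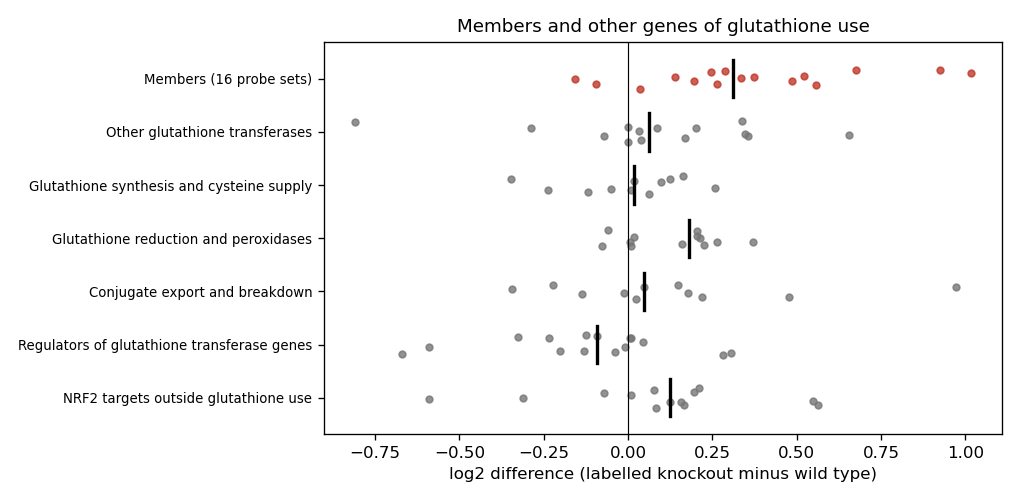
Log2 difference (knockout-labelled arrays minus wild type, x axis) of the 16 member probe sets past the filter (red) and of the tested genes of 6 lists, 1 probe set a gene (grey); black bars are medians and the vertical spread within a row carries no meaning. The medians are 0.31 for the members and -0.09 to 0.18 for the lists.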

How the data were processed

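The authors deposited a linear intensity for every probe set on each array, from MAS5 per the submitters' processing notes. The MAS5 version and scaling target were not given in the sources used here, and array medians differed (27.0 to 37.0). Replicates were not pooled. Symbols came from the platform annotation.

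Values were taken as log2(signal + 16), quantile normalized over all probe sets and filtered at the 40th percentile of the mean (a signal of about 18.4), with the 64 control probe sets left out of tests. That left 27002 probe sets, fitted in limma 3.58.1 under R 4.3.3 (lmFit, then eBayes with a trend in variance), where the residual degrees of freedom were 4 and the prior ones 4.57, with Benjamini-Hochberg adjustment over all 27002. Quantile normalization removes overall differences in brightness between arrays. The number of arrays limits the precision. Exact permutation of 3 against 3 arrays cannot give a p under 0.1 and was not used.

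All member probe sets were named. The brightest probe set stood for a gene of the lists, and up to 3 list genes with the smallest p were named. Members, lists and alternatives were chosen with earlier results of these data known. Promoters were matched by symbol. In 5 simulations of 27002 probe sets, with 200 changed by 1 and 200 by 2 in log2 terms, limma called 29.9% and 82.4% of them, and 3.68% of calls were unchanged probe sets. The adjusted threshold depends on how many probe sets change, and limma called 0 in the data. These rates therefore do not give the power to call a member. Alternatives were other scalings, pseudocounts, filters, probe set choice, eBayes settings, array weights (gene-by-gene method), a replicate block, single arrays left out, wild type B as sole control and the Gapdh ratio as covariate.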

Additional observations from a re-analysis of the deposited data

How the results depend on the processing

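In 19 alternatives, 12 of the 16 member probe sets past the filter kept their direction wherever they were tested, and 4 (Gstm2, Gstm5 and both Gsto1 sets) turned in at least 1. The number of members called stayed at 0 except with array weights, where 1 (the probe set shared by Gsta1, Gsta2 and Gm3776) of 74 probe sets called over the whole array was a member. Over all probe sets limma called 1 on the signals as deposited, 1 with arrays centred on their medians, 3 with wild type B as sole control and 0 to 2 with single arrays left out. The members' median of 0.31 was 0.77 on the signals as deposited and 0.54 with centred arrays, where the median of all probe sets was 0.40 and 0.16, and in both 14 of 16 lay above that median, as with quantile normalization. It ran from 0.26 to 0.36 with single arrays left out, and 13 or 14 members were then higher. With the brightest probe set of each gene, which leaves 9 member genes, 7 were higher.

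The gene-by-gene array weights were chosen after seeing the data, because limma's default weights did not converge. Those weighted wild type A most, and with them 5354 of 27002 probe sets were called, 5 of them members.

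With the replicate letter as a replicate block, limma called 1 probe set over the whole array and 0 members. Same-lettered arrays did not deviate together (correlations of -0.07, -0.16 and 0.43 for A, B and C), so the letters were not taken as pairs, and only C correlated best with its own letter. In the fit with wild type B as sole control that single array is assumed to vary like the knockout-labelled arrays.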
